A study of Mus musculus with 2 samples.

Results

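The genes described here are 36 targets of type I interferon, the antiviral signal that infected cells and activated macrophages release. They were chosen by gene symbol from a list of well-known interferon-stimulated genes, and all 36 were found among the 55536 annotated genes. Their RNA was measured in the nucleoplasm, the soluble part of the nucleus, of bone marrow-derived macrophages of C57BL/6J mice. These primary cells, grown from marrow in culture, had been given 100 ng/ml Lipid A, the part of bacterial endotoxin that the receptor TLR4 detects, for 30 min. Total RNA depleted of ribosomal RNA was sequenced in 2 libraries of a single group, made from 1 µg (replicate 1) and 500 ng (replicate 2) of starting RNA. Other labels call the fraction nuclear. Both replicates are labelled biological and cite 1 donor entry with different biosamples, and no label states that the cells were cultured apart, so their spread could be technical. An unstimulated sample was not analysed here, so the values are levels after Lipid A and none can be read as an induction. In bulk RNA, fewer cells that hold a transcript and less of it per cell cannot be told apart.

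Type I interferons bind a receptor made of IFNAR1 and IFNAR2. The kinases JAK1 and TYK2 then phosphorylate STAT2, which with IRF9 is part of the complex ISGF3. ISGF3 binds the interferon-stimulated response element (ISRE), a repeat of GAAA with short spacing in the promoters of its targets, and IRF proteins bind the same element. In macrophages TLR4 leads through the adaptor TRIF, TBK1 and IRF3 to Ifnb1, and the interferon that is made acts back on the cells. Macrophages are known to transcribe many of these targets at a tonic level before any infection.

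The ISRE was looked for in the RefSeq promoter windows of the GRCm38.p6 build. They run from 250 bases before to 50 bases after a RefSeq start of the gene. Of the 36 genes, 27 had a window, and 4 of these had more than 1. The other 9 are Parp14, Oas2, Mx1, Mx2, Dhx58, Parp9, Rtp4, Zbp1 and Usp18. The core, spelled GAAA, any 2 bases and GAAA again and searched on both strands, was present in 17 of the 27 genes, against 3.99% of 27025 genes with a window. Counted by window, 18 of 31 windows of these genes held it, against 3.44% of 32851. The match nearest to the start is printed for each of the 17 genes with 10 bases on either side, fewer at a window's edge, to show how the element varies among them. For Trim30a it is taken from the window at the gene's annotated start. Capitals mark the core. Each line is read 5′ to 3′ along the strand on which it reads GAAA.
Oas1a (chr5:120907520-120907549, minus strand): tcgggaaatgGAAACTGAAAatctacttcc
Oas3 (chr5:120777715-120777744, minus strand): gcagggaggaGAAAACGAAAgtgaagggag
Gbp2 (chr3:142620594-142620623, minus strand): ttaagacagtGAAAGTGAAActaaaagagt
Gbp3 (chr3:142559995-142560024, minus strand): agggatctggGAAATAGAAActgaaactgt
Gbp5 (chr3:142496759-142496788, minus strand): tctctaaactGAAATTGAAActacacaagt
Gbp7 (chr3:142530273-142530302, minus strand): atggagaactGAAACTGAAActgcacacac
Ifih1 (chr2:62646206-62646233, minus strand): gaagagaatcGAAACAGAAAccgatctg
Ddx58 (chr4:40239804-40239833, plus strand): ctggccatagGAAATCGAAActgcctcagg
Eif2ak2 (chr17:78882535-78882564, minus strand): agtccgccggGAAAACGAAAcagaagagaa
Ifit1 (chr19:34640794-34640823, minus strand): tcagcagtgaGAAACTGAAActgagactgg
Ifit3 (chr19:34583397-34583426, minus strand): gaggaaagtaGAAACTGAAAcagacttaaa
Isg15 (chr4:156200865-156200894, minus strand): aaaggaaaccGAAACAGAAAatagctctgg
Rsad2 (chr12:26456553-26456582, plus strand): tctgttttctGAAAATGAAAgttggaccag
Ifitm3 (chr7:141010723-141010752, minus strand): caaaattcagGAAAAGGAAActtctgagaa
Bst2 (chr8:71537577-71537606, minus strand): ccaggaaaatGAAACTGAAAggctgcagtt
Stat2 (chr10:128270266-128270295, minus strand): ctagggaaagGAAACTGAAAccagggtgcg
Trim30a (chr7:104465210-104465239, plus strand): caggaactgaGAAAAAGAAActaaagaact

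The longer form, the core followed by CT, was present in 11 of 27 genes, against 0.303% of all genes. They are Bst2, Ddx58, Gbp2, Gbp3, Gbp5, Gbp7, Ifit1, Ifit3, Ifitm3, Oas1a and Trim30a, so the Gbp genes held it in all 4 cases. The cores of Bst2, Gbp3, Oas1a and Isg15 overlapped a further core of the same gene, so that GAAA recurred at a steady step. Oasl2, Sp100, Ifit2, Herc6, Ifi35, Xaf1, Cmpk2, Dtx3l, Oasl1 and Ifi44 had no exact core in their windows. With the RefSeq start counted as 0, the cores lay between base -222 in Stat2 and base 41 in Ifih1. Those of Ddx58, Eif2ak2, Ifih1 and Ifitm3 lay after this start, inside the transcribed sequence, as did that of 1 of the 2 Trim30a windows. The cores of Gbp2 and Gbp5 lay before the RefSeq start but inside the annotated gene, which begins farther upstream.

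The 2 other elements searched were present in fewer of the genes. GAS, the interferon gamma-activated element of TTC and GAA around any 3 bases, was present in 8 of 27 genes, against 9.55% of all genes. The kappaB form, GGGA, any 4 bases and CC, to which NF-kB binds, was present in 8 of 27, against 22.9%. A match is a run of letters and was not tested for binding. The 250 bases before the RefSeq start are printed for 3 genes that show the arrangements. They are a run of overlapping cores in Isg15, a pair of separate cores in Ifit3, and 1 core between 2 GAS matches in Gbp5. The RefSeq start of Gbp5 lies inside the annotated gene, which begins at 142493978. Its printed bases are therefore not upstream of the gene as annotated. Capitals mark ISRE cores and GAS matches, on either strand, and each sequence is read along the gene's strand.
Isg15 (chr4:156200819-156201068, minus strand): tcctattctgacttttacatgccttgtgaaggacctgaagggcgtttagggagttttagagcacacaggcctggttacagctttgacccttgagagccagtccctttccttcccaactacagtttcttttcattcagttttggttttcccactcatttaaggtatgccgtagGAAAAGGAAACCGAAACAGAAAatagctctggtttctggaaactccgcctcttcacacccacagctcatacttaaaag
Ifit3 (chr19:34583279-34583528, plus strand): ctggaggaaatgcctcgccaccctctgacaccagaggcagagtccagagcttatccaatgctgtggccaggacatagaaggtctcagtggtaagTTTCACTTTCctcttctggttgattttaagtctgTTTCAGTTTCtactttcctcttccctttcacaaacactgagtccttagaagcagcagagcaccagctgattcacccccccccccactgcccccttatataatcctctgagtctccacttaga
Gbp5 (chr3:142496684-142496933, plus strand): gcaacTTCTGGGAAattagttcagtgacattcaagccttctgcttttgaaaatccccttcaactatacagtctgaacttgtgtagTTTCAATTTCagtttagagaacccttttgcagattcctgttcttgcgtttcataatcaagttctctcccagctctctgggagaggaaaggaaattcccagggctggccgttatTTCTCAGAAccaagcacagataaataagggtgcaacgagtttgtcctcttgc

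**Figure D1:**
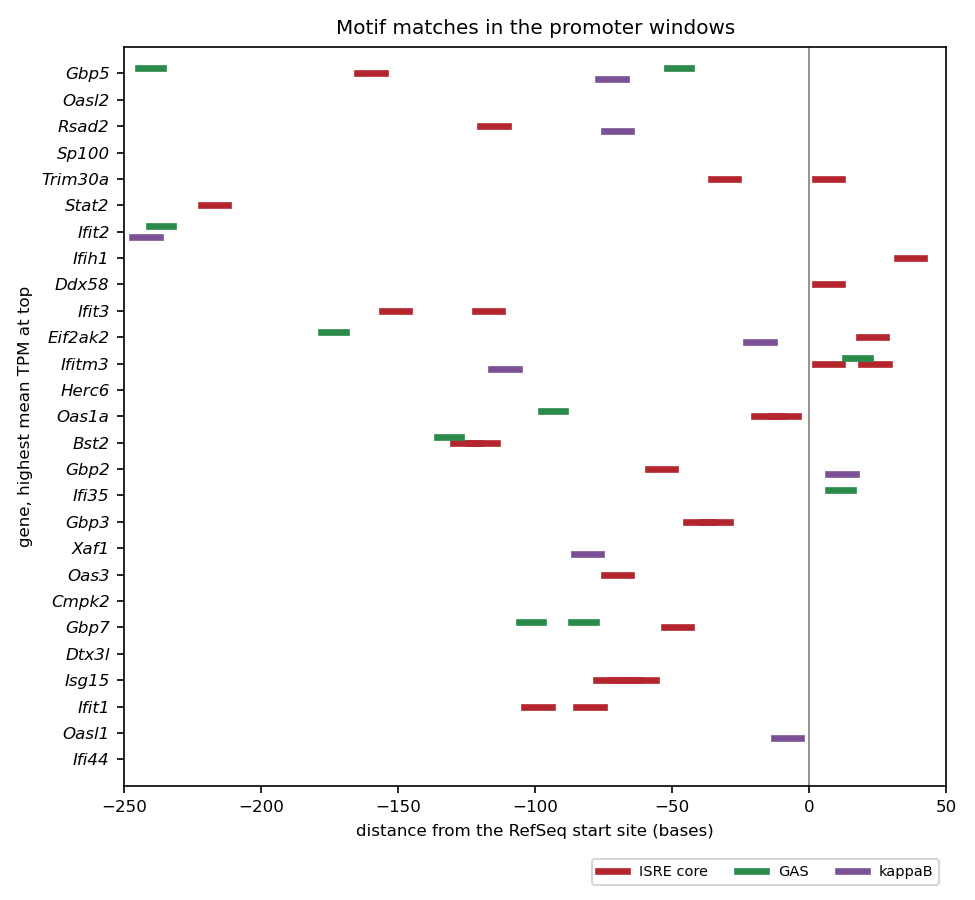
Positions of ISRE core, GAS and kappaB matches in the promoter windows of the 27 genes that have one. The x axis is the distance from the RefSeq start site in bases, each row is a gene ordered by mean TPM, and bars that overlap are overlapping matches; for Gbp3, Ifit2, Sp100 and Trim30a several windows share a row. The ISRE cores cluster between -165 and the start, with Stat2 farther upstream at -222 and Ddx58, Eif2ak2, Ifih1 and Ifitm3 among those with a core after the start.

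The promoter letters and the RNA levels were set side by side as a description. The 17 genes with a core had a median of 38.9 TPM, from 9.92 to 155. The 10 without one had a median of 21.8 TPM, from 7.71 to 152. The ranges covered nearly the same span.

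The libraries held 16037242 and 14906686 expected counts, the read numbers that the deposited tables assign to genes and that are called reads from here on. Annotated genes took 15846212 and 14874879 of them. Levels are in TPM, which divides reads by transcript length and by the library's total so that genes can be compared within a library. All 7 macrophage markers were detected, with summed TPM of 2594 and 3339. Markers of B cells, T or NK cells, conventional dendritic cells and fibroblasts had 0 detected genes in the gene tables. In a second quantification of the same reads the T cell marker Cd3d had 4.02 and 3.37 TPM. Plasmacytoid dendritic cells, a known source of type I interferon, had 1 of 5 markers detected, with summed TPM of 2.47 and 2.64. The detected marker, Ccr9, had 153 and 167 reads. The defining marker Siglech had 11 and 26 reads, Cox6a2 had 1 and 0, and Klk1 and Ly6d had 0. Neutrophil markers had 2 of 6 detected and summed TPM of 3.89 and 7.71, and erythroid markers 1 of 4 and 2.36 and 2.57. The part of such cells in the levels below was not tested.

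All 36 interferon targets were detected, which means 1 TPM or more in each library, against 20.7% of annotated genes and 42.4% of 22028 protein-coding genes. The median of their mean TPM was 35.6, and the median of the 9339 detected protein-coding genes was 8.61. Of the 36, 34 lay above that median, and Usp18 and Ifi44 lay below it. In replicate 1 their median was 42.7 TPM and in replicate 2 it was 25.6. Together they took 104395 and 68985 reads, which is 0.659% and 0.464% of the reads on annotated genes. The 5 genes with the most reads, Parp14, Gbp5, Oas2, Rsad2 and Trim30a in either library, took 53.6% of these reads in replicate 1 and 46.6% in replicate 2. A mean of at least 50 TPM was reached by 10 genes, 22 lay between 10 and 50, and 4 lay below 10.

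**Figure D2:**
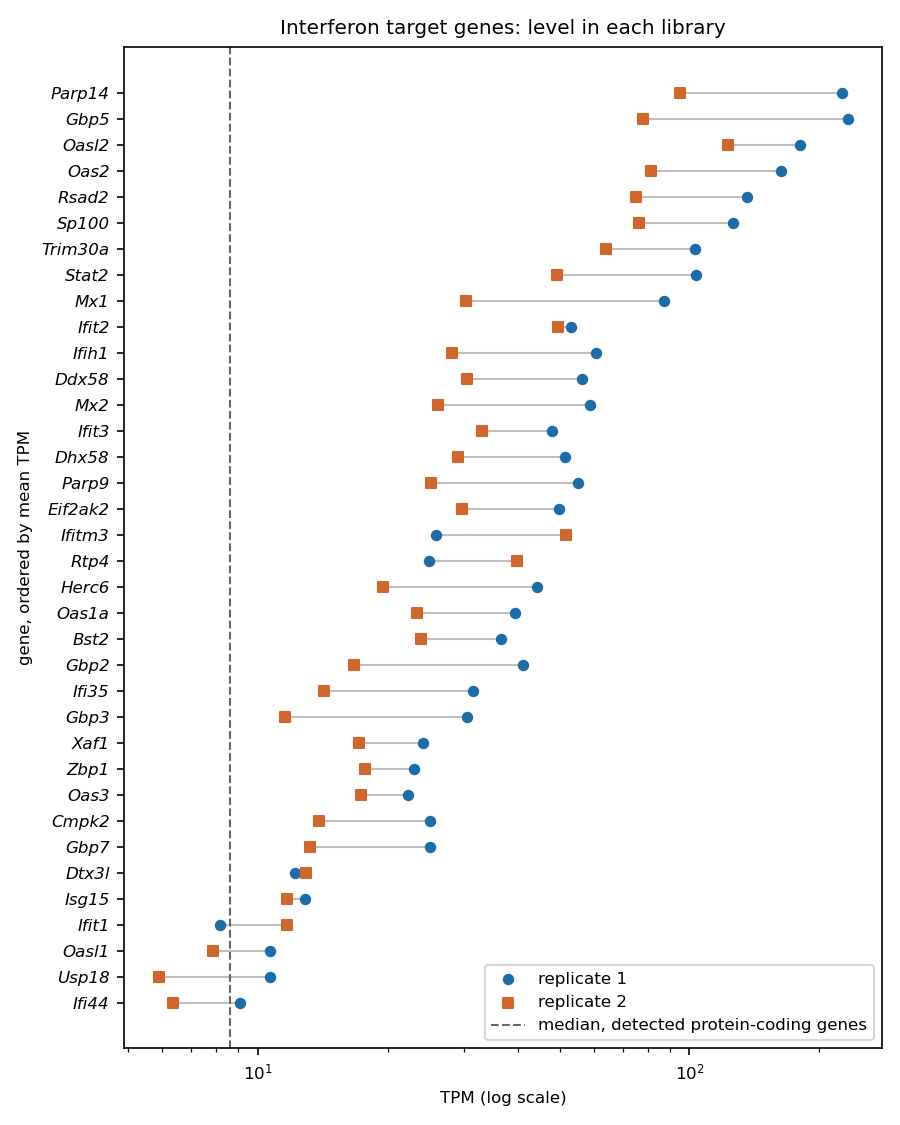
Level of each of the 36 genes in the 2 libraries. The x axis is TPM on a log scale, rows are genes ordered by mean TPM, circles are replicate 1, squares are replicate 2 and the dashed line is the median of detected protein-coding genes, 8.61 TPM. The genes span 7.71 to 160.4 TPM by mean, and replicate 2 lies left of replicate 1 for 32 of 36.

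The order of the genes was broadly shared, with a Spearman's rho of 0.862 between the libraries over the 36 genes. No gap between neighbours in that order, over 35 pairs, was larger than the larger of the 2 genes' SDs. Only wide steps in the order therefore stand clear of the spread. The 5 highest genes all had at least 75.4 TPM in either library, and 27 genes were below that level in both. The level is that of Rsad2 in replicate 2. Sp100, next in the order, also passed it, with 127 and 76.6 TPM, so the 5 do not stand apart there.

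TPM was lower in replicate 2 for 32 of the 36 genes, against 75.3% of the 10448 genes that averaged 50 reads or more. Over those genes the median log2 ratio of TPM was -0.44, and over the 36 it was -0.79. TPM therefore mixes a shift of the whole library into each gene, and differences between the libraries are given below as ratios of reads scaled by TMM. This scaling left the median log2 ratio of all 10448 genes at -0.03.

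The family of oligoadenylate synthetases makes a second messenger from ATP on double-stranded RNA, which activates RNase L to cut RNA. Its 5 members here ranged from 9.27 to 152 TPM. Oasl2, an OAS-like gene (ENSMUSG00000029561.17, chromosome 5, 114896936 to 114912234), had 180.5 and 123 TPM, or 152 ± 40.5 (SD, n = 2), from 4606 and 3960 reads. Oas2 had 163 and 81.7 TPM, or 122 ± 57.6, from 9596 and 6112 reads. Both were high in both libraries. Oasl1, another OAS-like gene, is known to hold back translation of Irf7 mRNA. It was among the 5 lowest, with 10.7 and 7.86 TPM from 271 and 221 reads. Oas1a and Oas3 lay between, at means of 31.4 and 19.8 TPM. Oas1a, Oas3 and Oas2 lie in tandem on chromosome 5, and Oas3 and Oas2 are 3244 bases apart. Scaled log2 ratios of replicate 2 to replicate 1 were -0.59 for Oas2 and 0.12 for Oas3, so these adjoining genes lay on opposite sides of equal levels, Oas3 not under the ratio of TPM.

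Dynamin-like Mx proteins and guanylate-binding proteins are large GTPases that act against viruses and against bacteria in vacuoles, and the Gbp genes also respond to interferon gamma. All 6 were lower in replicate 2, with a median log2 ratio of -0.97. Gbp5, which is known to promote inflammasome assembly (ENSMUSG00000105504.4, chromosome 3, 142493978 to 142522344), had 233 and 78.2 TPM from 12620 and 5249 reads. It had the highest TPM of the 36 in replicate 1 and the fourth highest in replicate 2. Its mean was 155 ± 109 TPM, the widest SD of the 36. Gbp3 had 30.4 and 11.5 TPM from 1221 and 582 reads and Gbp2 and Gbp7 stood at 29.0 ± 17.4 and 19.1 ± 8.40 TPM. The 4 Gbp genes lie in tandem on chromosome 3, from Gbp5 to Gbp2, with log2 ratios of -1.20, -0.33, -1.004 and -0.94 in the order Gbp5, Gbp7, Gbp3, Gbp2. Mx1, whose product acts on influenza virus in the nucleus, had 87.4 and 30.3 TPM from 2549 and 1481 reads. Many inbred laboratory strains, C57BL/6 among them, are known to carry defective Mx genes. Mx2 is annotated as a polymorphic pseudogene, the only member outside the protein-coding class, and had 59.0 and 26.1 TPM from 1846 and 776 reads.

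PARP9 and PARP14 belong to the ADP-ribosyltransferase family, and DTX3L is a ubiquitin ligase that pairs with PARP9. Parp14 had the highest mean TPM of the 36 (ENSMUSG00000034422.14, chromosome 16, 35832874 to 35871544). Its level was 226 and 95.2 TPM, or 160.4 ± 92.3, and it took the most reads, 19741 and 10603. Parp9 had 55.1 and 25.1 TPM from 2089 and 1207 reads. Dtx3l had 12.2 and 12.9 TPM from 1042 and 1359 reads, so that it lay higher in replicate 2 while Parp9 lay lower. These 2 genes start from opposite strands and overlap over 682 bases, of which 458 are exonic in both. No source used here says if strand entered the counting, which makes the reads of that stretch uncertain for both genes.

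Sensors of viral nucleic acid stood from 20.3 to 44.5 TPM. Ifih1, which encodes the sensor MDA5 of long double-stranded RNA, had 60.8 and 28.1 TPM from 3216 and 1750 reads. Ddx58, which encodes RIG-I, the sensor of RNA ends with a triphosphate, stood at 43.5 ± 18.4 TPM. Dhx58 encodes LGP2, a relative of both that tunes them, and had 51.5 and 29.1 TPM from 1344 and 916 reads. Eif2ak2 encodes PKR, the kinase that stops translation on double-stranded RNA, and had 49.8 and 29.6 TPM from 1912 and 1494 reads. Zbp1, a sensor of left-handed nucleic acid that can trigger necroptosis, had 23.0 and 17.7 TPM from 779 and 648 reads. All 5 were lower in replicate 2, with log2 ratios from -0.81 for Ifih1 to -0.20 for Zbp1.

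Among the IFIT proteins, IFIT1 binds viral RNA that lacks the host's cap methylation. The 3 Ifit genes are unlike the families above in that 2 of them had more reads in replicate 2. Ifit1 was among the 5 lowest genes, with 8.18 and 11.7 TPM from 340 and 596 reads. Ifit2 stood at 51.4 ± 2.60 TPM, from 3264 and 3722 reads, and its TPM alone was slightly lower in replicate 2. Ifit3 stood at 40.6 ± 10.7 TPM, from 1249 and 1061 reads. They lie in tandem on chromosome 19, with log2 ratios of 0.25 for Ifit2, -0.17 for Ifit3 and 0.87 for Ifit1.

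ISG15 is a ubiquitin-like protein that is attached to other proteins. In the mouse HERC6 is its main ligase, and USP18 removes it and also blocks the interferon receptor. Isg15 itself (ENSMUSG00000035692.6, chromosome 4, 156199424 to 156200818) was among the 5 lowest genes, with 12.9 and 11.7 TPM from 116 and 134 reads. It had the fewest reads of the 36, and the counting interval of its ratio spanned equal levels. Usp18 had 10.6 and 5.88 TPM from 217 and 172 reads. Herc6 stood at 31.9 ± 17.5 TPM, above both.

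Effectors at membranes and in metabolism came next. Rsad2 encodes viperin, which turns CTP into a chain terminator of viral RNA synthesis, and Cmpk2 encodes a mitochondrial nucleotide kinase. The pair start 12752 bases apart on chromosome 12 and point away from each other. Rsad2 had 136 and 75.4 TPM from 8314 and 5695 reads, and Cmpk2 had 25.02 and 13.9 TPM from 1257 and 788 reads. Their log2 ratios were alike, at -0.48 and -0.61. Ifitm3, which blocks fusion of viruses in endosomes (ENSMUSG00000025492.6, chromosome 7, 141009586 to 141010770), had 25.9 and 51.9 TPM from 199 and 512 reads. Rtp4, named for a part in receptor transport, had 24.9 and 39.8 TPM from 480 and 838 reads. These 2 genes were the clearest exceptions to the lower TPM of replicate 2. Bst2, which encodes tetherin, the protein that holds budding virus at the cell surface, stood at 30.2 ± 8.97 TPM.

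Signalling and nuclear factors ran from 7.71 to 102 TPM. Sp100, a component of PML nuclear bodies, had 127 and 76.6 TPM from 3171 and 2696 reads. Trim30a, a TRIM protein that restrains TLR signalling, stood at 83.5 ± 27.5 TPM, and Stat2 at 76.6 ± 38.4 TPM. Ifi35 and Xaf1, which encodes a factor that opposes the apoptosis inhibitor XIAP, stood at 22.9 ± 12.3 and 20.7 ± 4.94 TPM. Ifi44 had the lowest mean of the 36, with 9.08 and 6.34 TPM from 370 and 300 reads.

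Relative to all genes, most of the 36 had fewer reads in replicate 2. The TMM-scaled log2 ratio was below 0 for 28 genes (77.8%), against 52.4% of all 10448 genes tested and 49.9% of 9006 protein-coding genes. Its median was -0.31, with quartiles of -0.68 and -0.16, and the protein-coding median was 0.00 with quartiles of -0.34 and 0.39. The 95% counting interval lay below equal levels for 25 genes, above for 6, and spanned it for 5. They hold counting error alone, as these reads carry no molecular identifiers and several can stem from 1 molecule. A ratio of 2 libraries of 1 group carries no p-value.

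Beyond 2-fold was 1 gene higher in replicate 2 (2.78%), against 5.22% of all genes and 5.29% of protein-coding genes. Lower were 3 genes (8.33%), against 3.80% and 2.49%. Neither share is read as particular to the 36. Ifitm3 was the higher one, at a log2 ratio of 1.43 with an interval from 1.19 to 1.67, or 2.69-fold. Gbp5, Mx2 and Gbp3 were lower, at -1.20, -1.19 and -1.004, the last right at the limit. In the second set of transcript tables, made from the same reads by another quantification, these were -0.94, -0.84 and -0.85, so none of the 3 passed 2-fold there. Gbp3 also lay inside 2-fold with scaling by library size alone, at -0.98. Ifitm3 lay beyond 2-fold in all alternatives run, but right at the limit by the ratio of TPM, at 1.0025. The next genes in the upward direction, Ifit1 and Rtp4, both stood at 0.87.

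**Figure D3:**
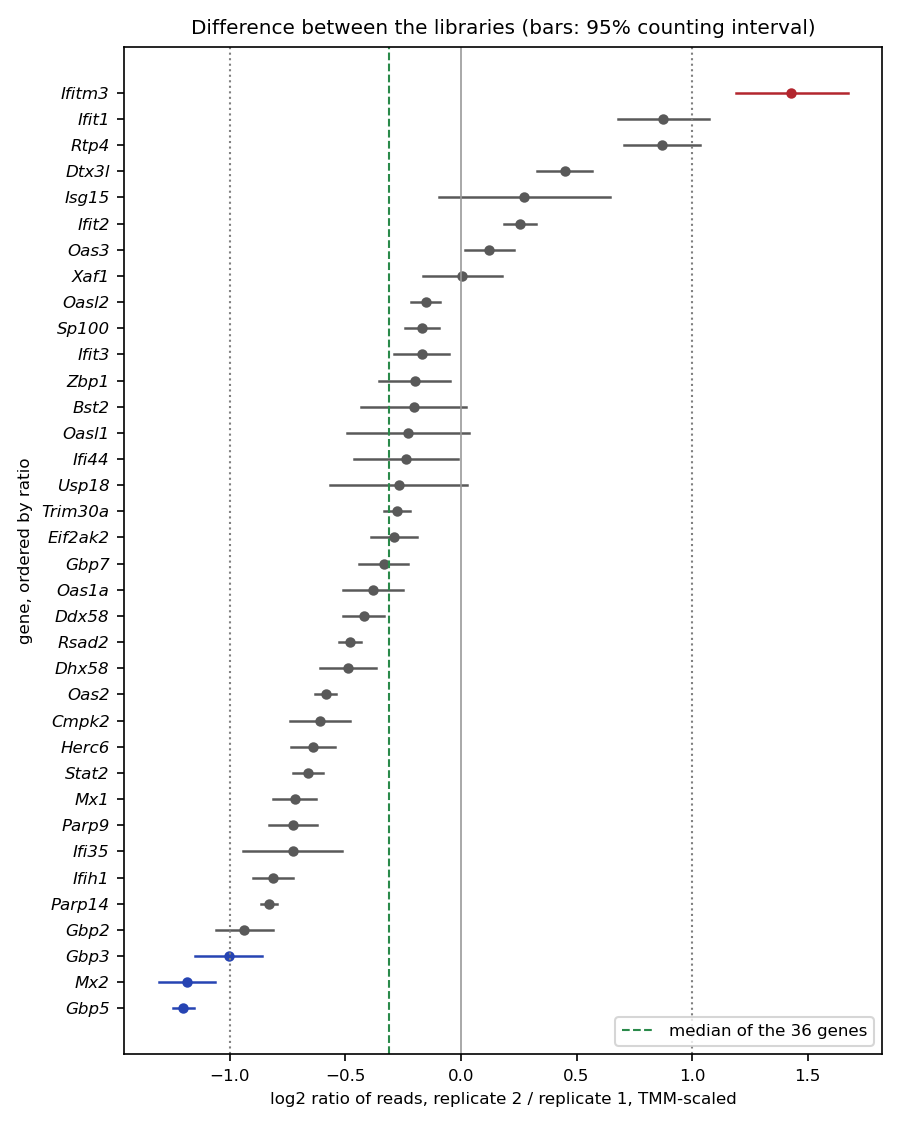
Log2 ratio of TMM-scaled reads, replicate 2 over replicate 1, for the 36 genes ordered by ratio. Bars are 95% counting intervals, dotted lines mark 2-fold, the dashed line is the median of the 36, -0.31, and genes beyond 2-fold are coloured. Ifitm3 stands alone at 1.43, and Gbp3, Mx2 and Gbp5 lie between -1.20 and -1.004.

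The sign of the ratio held for 31 of the 36 genes under all 5 other scalings and quantifications. Xaf1, at 0.01, changed sign under 3 of them: DESeq2 size factors, the second tables and the ratio of TPM. Bst2 changed in the second tables. Ifit2, Isg15 and Oas3 were above 0 by scaled reads and below it by the ratio of TPM, which carries the shift of all genes.

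The genes with more reads in replicate 2 were mostly genes with few exons. Over the 36 genes, Spearman's rho between the ratio and the number of exons in the longest coding transcript was -0.60. Over 9006 protein-coding genes it was -0.42. With genomic span Spearman's rho was -0.29, against -0.32. The genes share the same 2 libraries, so these values describe them and are no test. Of the 6 targets with up to 4 exons, 5 lay above 0, with a median log2 ratio of 0.57. They are Ifit1, Ifitm3, Isg15, Ifit2 and Rtp4, and Ifit3 was the exception. Of the 30 with more exons, 3 lay above 0 (Dtx3l, Oas3 and Xaf1), with a median of -0.45. Protein-coding genes showed the same split in a milder form, with 70.1% of 1457 genes with up to 4 exons above 0 and 46.2% of 7549 with more. The limit of 4 exons was chosen after the values were seen. The starting RNA also differed between the libraries, and its part in the ratios cannot be told apart from the replicate.

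**Figure D4:**
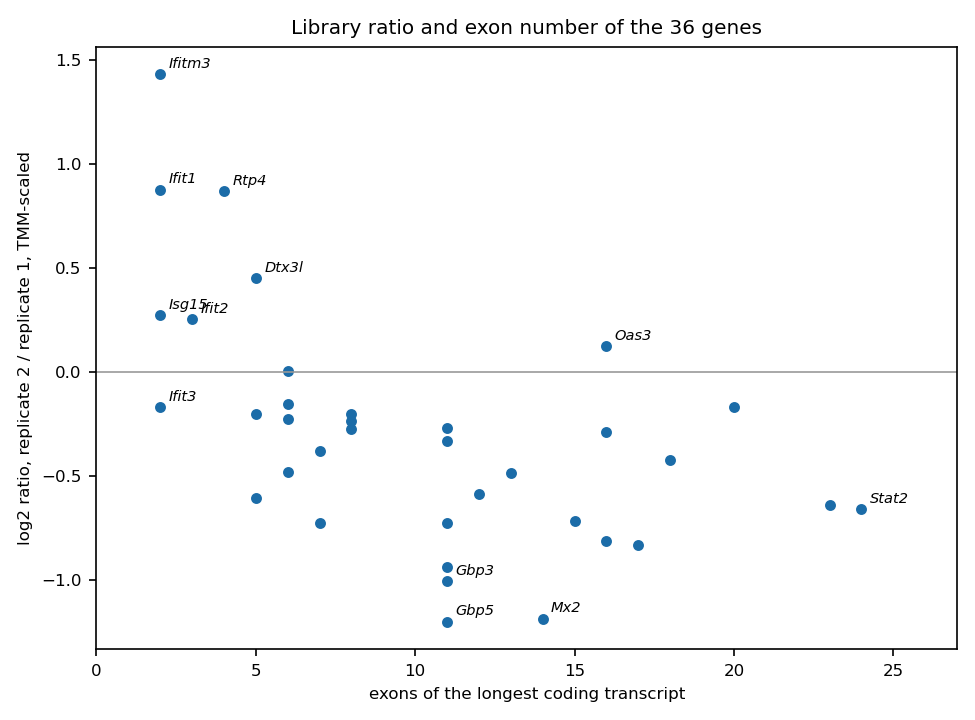
Log2 ratio of TMM-scaled reads, replicate 2 over replicate 1, against the number of exons in the longest coding transcript of each of the 36 genes. Each point is a gene, and the line marks equal levels; 5 of the 6 genes with up to 4 exons lie above 0, against 3 of the 30 with more.

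Nuclear RNA holds transcripts that are still being spliced, and the annotation lists some of them as separate transcripts. The deposited percentages give the share of a gene's TPM in each transcript. Of the 36 genes, 5 have 1 annotated transcript (Ifit1, Ifit3, Isg15, Ifitm3 and Oas1a). Protein-coding transcripts held over 90% in both libraries for 15 genes, these 5 included. The leading transcript was protein-coding for 29 genes in replicate 1 and 28 in replicate 2, and it was the same in both libraries for 31.

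Transcripts annotated as retained intron exist for 21 of the 36 genes. They held a median of 31.2% of TPM, 32.0% in replicate 1 and 29.0% in replicate 2, against a median of 26.8% over 4434 genes with such a transcript. As a share of reads the medians were 16% and 15.8%, because TPM gives short transcripts more weight. Such a share does not separate a retained intron from RNA that is yet to be spliced. Above 50% in both libraries were 2 genes (9.52%), against 11.9% of genes with such a transcript. Oasl2 had 51.7% and 54.6%, spread over 4 transcripts. The largest of them by reads, Oasl2-208, is 1 exon of 2108 bases that lies wholly inside intron 3 of 5 and took 940 and 1145 reads. Its protein-coding transcripts held 11.4% and 8.16%, and a transcript of the nonsense-mediated decay class 37.0% and 37.3%. Ifih1 had 56.4% and 60.0%, mostly on Ifih1-203, which runs for 1568 bases into intron 3 of 15 and took 1141 and 721 reads. In the second tables Ifih1 had 29.3% and 36.1%, so its place above 50% depends on the quantification, whereas Oasl2 had 55.7% and 58.7% there. Stat2, with 56.6% and 53.4%, and Cmpk2, with 66.3% and 65.1%, lay above 50% in both libraries of the second tables only. Oasl2 was the gene above 50% in both libraries of both quantifications.

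Gbp5 changed its leading transcript between the libraries and showed the widest difference in retained-intron share. Gbp5-201, the protein-coding form, led in replicate 1 with 39.7% and had 28.5% in replicate 2. Gbp5-205, the retained-intron form, had 32.0% and 53.1%. It takes in introns 4, 5 and 6 of 10 whole, on chromosome 3 from 142503126 to 142503722, from 142503923 to 142504251 and from 142504495 to 142505381. Its reads were 4181 and 2861, a log2 ratio of -0.48. The other Gbp5 transcripts had 8439 and 2388 reads, a log2 ratio of -1.76. The lower level of Gbp5 in replicate 2 thus lay mostly on its other transcripts. The second tables gave the retained-intron form 27.2% and 42.5%.

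Over the 16 genes with at least 50 mean reads in both parts, retained-intron reads had a lower ratio than the other reads in 10 (62.5%), against 53.5% of 2944 genes. The median difference between the 2 log2 ratios was -0.14, against -0.07 over all those genes. The genes differed widely among themselves. Ifi44 lay at the other end from Gbp5, with 169.7 and 78.4 retained-intron reads and 200.4 and 222 other reads, a difference of -1.26. Its retained-intron transcript takes in introns 2 and 3 of 7.

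The leading transcript differed in 4 other genes. In Oasl1 the lead went from the protein-coding Oasl1-202 (61.7% and 29.1%) to the retained-intron Oasl1-204 (33.8% and 44.4%), which rests on 35.2 and 43.2 reads. A further protein-coding form, Oasl1-201, had 4.52% and 26.5%. Protein-coding transcripts together held 66.2% and 55.7% of Oasl1, more than Oasl1-204 in both libraries. Zbp1-203, which takes in intron 4 of 7 whole, led in replicate 1 with 38.7% and had 31.1% in replicate 2, where the protein-coding Zbp1-202 had 36.4%. Parp9-203 (31.6% and 28.7%) gave way to Parp9-201 (28.5% and 36.8%), both protein-coding. Rtp4-201 (52.6% and 24.1%) gave way to Rtp4-203 (41.0% and 62.3%), also both protein-coding. For Rtp4 this was the form that carried the higher level, with 162 and 493 reads on Rtp4-203 and 301 and 274 on Rtp4-201. In the second tables Gbp5, Oasl1 and Rtp4 changed their leading transcript in the same way. For Oasl1 the lead was narrow there, with 2.07 TPM on Oasl1-204 and 1.97 on Oasl1-202 in replicate 2. Zbp1-202 led Zbp1 and Parp9-207 led Parp9 in both libraries of the second tables, so the changes of Zbp1 and Parp9 rest on the first tables. The leading transcript of the second tables matched in 26 genes in replicate 1 and 32 in replicate 2.

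Other classes led in a few genes. Mx1 was led by Mx1-205, of the nonsense-mediated decay class, with 39.7% and 64.0%, and that class held 69.7% and 74.0% of the gene. Mx1 has 10 annotated transcripts, and the second tables put Mx1-208 and Mx1-203 first, so the split within Mx1 is uncertain. Ifi35 was led by a transcript of the same class with 46.2% and 46.3%. Ddx58 and Dhx58 have no retained-intron transcript, and processed transcripts without an open reading frame held 52.9% and 49.9% of Ddx58 and 40.2% and 42.3% of Dhx58. Xaf1 was led by the retained-intron Xaf1-203 with 37.9% and 42.4%, which takes in intron 4 of 5 whole (chromosome 11, 72306653 to 72308606, 1954 bases). Its protein-coding transcripts together held 52.8% and 49.8%. In the second tables Xaf1-201, of the nonsense-mediated decay class, led in both libraries, and Xaf1-203 held 20.1% and 30.1%.

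**Figure D5:**
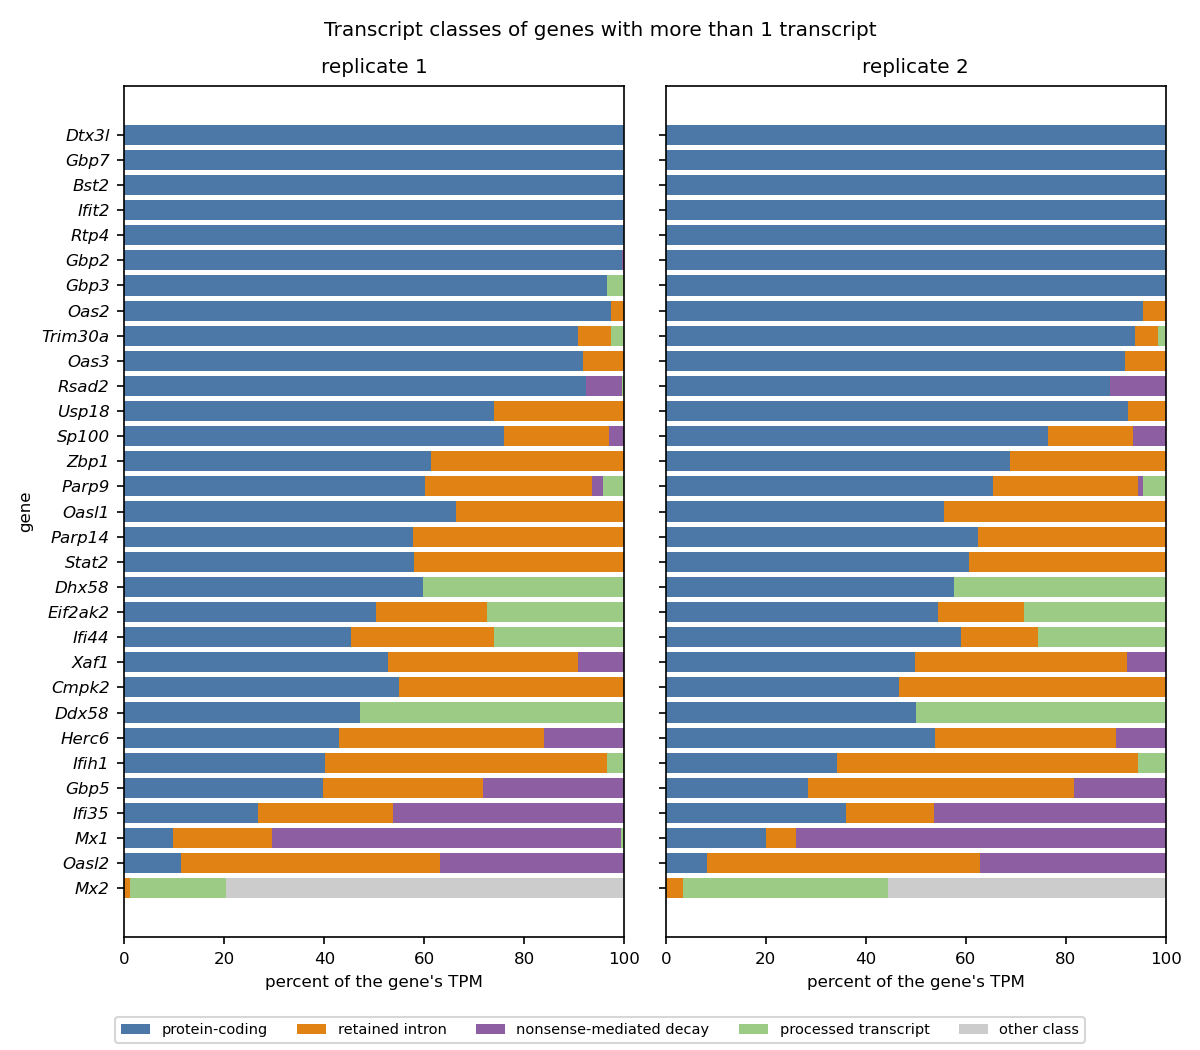
Share of each gene's TPM by annotated transcript class in replicate 1 (left) and replicate 2 (right), for the 31 genes with more than 1 transcript. The x axis is the percent of the gene's TPM, and other class stands for the polymorphic pseudogene transcripts of Mx2. Genes at the top are almost wholly protein-coding, and Mx2, Oasl2, Mx1, Ifi35, Gbp5 and Ifih1 lie at the bottom with most of their TPM in other classes in both libraries.

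The 36 genes lie on 14 chromosomes, with 6 on chromosome 16 and 5 each on chromosomes 3 and 5. Another of the 36 lay within 200 kb for 19 of them. Mx1 and Mx2 start 72401 bases apart and point away from each other, with log2 ratios of -0.72 and -1.19. Other annotated genes overlap some members on the opposite strand. Oas2 overlaps Gm43068 (81 and 62 reads) and Sp100 overlaps Gm17017 (101 and 52.9 reads), with no exonic base shared in either case. Dhx58 shares 141 exonic bases with Dhx58os, which had 25 and 10.02 reads, and Eif2ak2 shares 174 with Gm26637, which had 95.2 and 103 reads. In these 4 cases the other gene had far fewer reads than the member. Dtx3l and Parp9, described above, are the opposite-strand pair in which both genes had many reads. On the same strand, Parp14 overlaps Gm49730 over 1773 bases, of which 110 are exonic in both, and Gm49730 had 819 and 521 reads. Also on the same strand, Herc6 shares 1269 exonic bases with Gm45193 (28.9 and 0 reads) and Gbp7 shares 637 with Gm43802 (31.2 and 30.7 reads).

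The tables give the uncertainty of splitting reads between like genes as a posterior SD of the count. It was at most 1.02% of the count in replicate 1 and 1.22% in replicate 2 for any of the 36. The second tables, derived from the read files per the deposited text files, ranked the genes alike, with a rho of 0.959 and 0.946 over the 36. All 36 were again detected. Their TPM were lower, at a median of 0.545 and 0.591 of the gene tables, as for detected protein-coding genes at 0.575 and 0.576. Their estimated counts were higher, at a median of 1.29 and 1.65 times. The libraries as a whole also held more counts there, at 21932480 and 25815351, against 16037242 and 14906686. The extremes of the TPM ratio in replicate 1 were Ifit3 at 0.399 and Xaf1 at 1.11.

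Genes upstream of these targets were taken from a list of 27 receptors, kinases, factors and feedback inhibitors. Of these, 26 symbols were found, at a median of 29.6 TPM. Detected were 23, against 20.7% of annotated genes and 42.4% of protein-coding genes. Irf9, whose product pairs with STAT2, stood at 20.5 ± 8.70 TPM. The receptor genes Ifnar1 and Ifnar2 stood at 50.6 ± 11.0 and 52.0 ± 2.62 TPM, and the kinase genes Jak1 and Tyk2 at 30.0 ± 7.90 and 31.5 ± 11.1 TPM. The highest were Irf1, a transcription factor that also binds the ISRE, with 1094 and 395 TPM from 26253 and 11910 reads, and Cd14, the co-receptor that hands Lipid A on, with 431 and 367 TPM. Ikbke, a kinase related to TBK1, had 335 and 114 TPM, Socs3, a feedback inhibitor of cytokine receptors, 134 and 65.4, and Irf3 111 and 71.8. Of 22 with enough reads, Irf1 (-1.08) and Ikbke (-1.11) lay beyond 2-fold lower in replicate 2 and Ly96 (1.18, from 58 and 126 reads) beyond 2-fold higher. Over all genes tested, 3.80% were lower and 5.22% higher, and neither count is read as particular to the list. The interferon genes themselves were near or at the floor. Ifnb1 had 16 and 18 reads, and Ifna2 and Ifna4 were at 0 in the gene table of either library. A count of 0 leaves room for 3 counts, or 1.87e-05% and 2.01e-05% of the libraries. Socs1, which encodes an inhibitor of JAK kinases, was the lowest of the other genes, with 0.57 and 0.41 TPM from 25 and 22 reads.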

How the data were processed

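The series holds 2 libraries of nucleoplasmic RNA from macrophages given Lipid A, each with a gene table and a pair of transcript tables. The deposited text files name mm10 as build and GENCODE M21 as annotation. The authors' gene tables and first transcript tables give expected counts, TPM and, per transcript, the percent of the gene's TPM, per the file headers. Per their headers, the second deposited transcript tables hold estimated counts and TPM. The gene tables also give a posterior SD of the count. The headers match output of RSEM and of kallisto. The sources used here name no tool and no use of strand.

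From these, the 36 genes were matched by symbol and gene ID. The 26345 features without a gene name, at 1.19% and 0.213% of expected counts, stayed out of library sizes. Expected counts were rounded and scaled by TMM in edgeR 4.0.16, with DESeq2 1.42.0 size factors as an alternative. Ratios beyond 2-fold needed a mean of at least 50 reads and a 95% exact binomial counting interval that excluded equal levels. With 1 group of 2 libraries no test between conditions was made. The ratio call was tested on simulated counts that held counting error alone and changes well beyond 2-fold. Calls near 2-fold, or with other spread between libraries, were not covered by it. Retained-intron medians used genes at a TPM of at least 5. The alternatives were other scalings, count limits, the second tables, each library left out and other motif forms. DESeq2 size factors over genes averaging 50 reads or more were added after seeing the data, because the plain ones came out equal at 1 in both libraries. Protein identity between family members was not analysed here. The genes and lists were chosen with earlier results of these data known.

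All 36 genes are accounted for. Described in full were the 5 highest and 5 lowest by mean TPM, those beyond 2-fold, those whose leading transcript differed, those above 50% retained intron in both libraries and those overlapping an opposite-strand gene with at least 10 reads. Of the upstream list these were the 5 highest and 3 lowest. Other names were added after their values were seen. A gene of the upstream list is not reported here.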

Additional observations from a re-analysis of the deposited data

How the results depend on the processing

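All 36 genes were detected under every alternative run: the second tables, a TPM of 0.5 or 5, 10 reads, and either library alone. Their median TPM was 18.5 in the second tables and ran from 25.6 to 42.7 with 1 library left out. The count lower beyond 2-fold was 11 by the ratio of TPM and 0 in the second tables, against 3. The other scalings gave 2 to 4, and the gene higher beyond 2-fold was Ifitm3 each time. DESeq2 size factors added Gbp2 to the 3 lower genes, and library size alone and the added DESeq2 factors left Gbp5 and Mx2. The median log2 ratio was -0.38 with DESeq2 size factors, -0.29 by library size, -0.79 by the ratio of TPM, -0.36 at a mean of at least 200 reads, -0.23 in the second tables and -0.28 with the added DESeq2 factors. The ratio of TPM moved the median of all genes to -0.44. The median retained-intron share was 28.1% in the second tables and ran from 29.0% to 32.0% with 1 library left out. With 1 mismatch the ISRE core was in 26 genes, against 38.9% of all genes, and the longer form was in 11. The cause of these changes was not tested. A ratio between the libraries has no value with 1 of them left out. No paired analysis was possible because there is 1 group. Isg15, at 116 and 134 reads, had the widest counting interval of the 36.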

Other observations

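Related genes outside the 36 were looked up after the values above were seen. Of 25 genes of the Gbp, Ifit, Ifitm, Oas, Trim30 and Ifi44 families, 13 were detected. The share was 20.7% over annotated genes and 42.4% over protein-coding genes. A second Gbp cluster lies on chromosome 5, with levels that varied widely. Gbp8 stood at 61.5 ± 26.4 TPM, Gbp6 at 33.5 ± 21.5 and Gbp9 at 31.9 ± 10.3. Gbp4 had 413 and 384 reads and Gbp10 had 4 and 33, and both were below the 4 Gbp genes of the 36 in mean TPM. The annotated spans of Gbp8, Gbp9 and Gbp4 overlap, and how many exonic bases they share was not analysed, so their separate levels are uncertain.

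Near relatives of single members were also present. Oas1g had 891 and 606 reads beside 1118 and 821 for Oas1a, with a posterior SD of the count of 11.4 and 9.99 reads. Trim30d stood at 42.4 ± 15.5 TPM. Ifit3b, a near copy of Ifit3, had 69 and 96 reads, and Ifi44l had 0 in both libraries. Ifitm2, in the same cluster on chromosome 7 as Ifitm3, had 190 and 465 reads, a log2 ratio of 1.36 beside 1.43 for Ifitm3. Ifitm1, which lies between them, had 284 and 189 reads, a log2 ratio of -0.52. The cause of the opposite signs within the cluster was not tested.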
